A study of Caenorhabditis elegans with 6 samples.

Results

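The genes described here are those of Caenorhabditis elegans whose names mark a role in making or using sperm. They are every measured gene named spe- (defective spermatogenesis) or fer- (fertilization defective), together with gsp-3 and gsp-4, the phosphatase genes of the male germ line. The rule used names alone and no measured value. It took 28 of 45729 measured genes, of which 25 are spe- genes, 1 is a fer- gene and 2 are gsp genes. The msp, ssp and nspd families, which encode small and abundant sperm proteins in many near-identical copies, were left outside the rule and serve for comparison.

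RNA of whole worms was sequenced in 6 libraries, 3 from worms given D-mannose, a hexose sugar, and 3 from worms given water. Both groups were N2, the standard laboratory strain, aged 6 days, and both had grown with the Escherichia coli strain OP50 as food. The comparison asks which transcripts differ between worms given the sugar and worms that were not. The sources used here name neither the dose of mannose nor the number of worms in a library.

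In an N2 hermaphrodite, germ cells first form sperm, late in larval life, and then switch to oocytes for good. The sperm are stored in the spermatheca, and a mature nematode sperm crawls on a pseudopod built from major sperm protein, the msp product. While a spermatocyte divides, that protein is packed into fibrous bodies beside membranous organelles, activation later turns the round spermatid into a crawling cell, and proteins on the sperm surface then act when it meets the oocyte. Many spe and fer genes were found through mutants with a defect at one of these steps. In RNA of whole worms, fewer cells of a type and less RNA per cell cannot be told apart.

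The deposited values are FPKM, fragments scaled by gene length in kilobases and by an effective library size. The libraries summed to between 39892400 and 46041100 read equivalents. A single read over 1 kb of gene length equalled 0.0202 to 0.0263 FPKM. Mannose 1 and water 3 stood apart from the other libraries in genes of the oocyte and germ line. The 24 oocyte and germline markers summed to 9822, 5893 and 3871 FPKM in mannose 1, 2 and 3, against 4186, 4907 and 10867 FPKM in water 1, 2 and 3. Markers of the hermaphrodite were abundant, with the 6 yolk protein genes at 5565 to 6485 FPKM in sum. The 10 male markers summed to 0.286 to 0.791 FPKM in mannose and 0.432 to 0.601 FPKM in water, from 19 to 51 read equivalents in a library. Of these, cwp-1 and cwp-3, named after their values were seen, were at 0 in all libraries. The sources do not say that the libraries of a group came from separate cultures, so p-values here measure only the spread between these libraries.

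The members spanned a wide range of levels, and many were low. Only spe-39, spe-48, spe-5 and spe-38 were at 10 FPKM or more in all 6 libraries, and the levels of 12 members were under 1 FPKM in all 6. The mean over the libraries was highest for spe-39, at 63.6 FPKM, followed by spe-48 at 30.1, spe-5 at 26.98, spe-38 at 16.1 and spe-44 at 12.7 FPKM. The next were gsp-3, gsp-4 and spe-6, at 5.12, 4.81 and 4.77 FPKM, whose ranges over the libraries overlapped. At the bottom stood fer-1, spe-9 and spe-42, at 0.0756, 0.0745 and 0.0631 FPKM, also with overlapping ranges. A gene was tested where at least 3 of the 6 libraries reached 1 FPKM. Of the 28 members 13 passed this line and 15 did not. Of all 45729 measured genes 11237 passed, and 21746 were above 0 in at least 1 library. Just inside that line was spe-12, at 1.05, 1.04 and 0.995 FPKM in mannose and 1.09, 0.975 and 1.51 FPKM in water. Below it, spe-26 reached 1 FPKM in water 2 alone, at 1.03 FPKM.

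**Figure D1:**
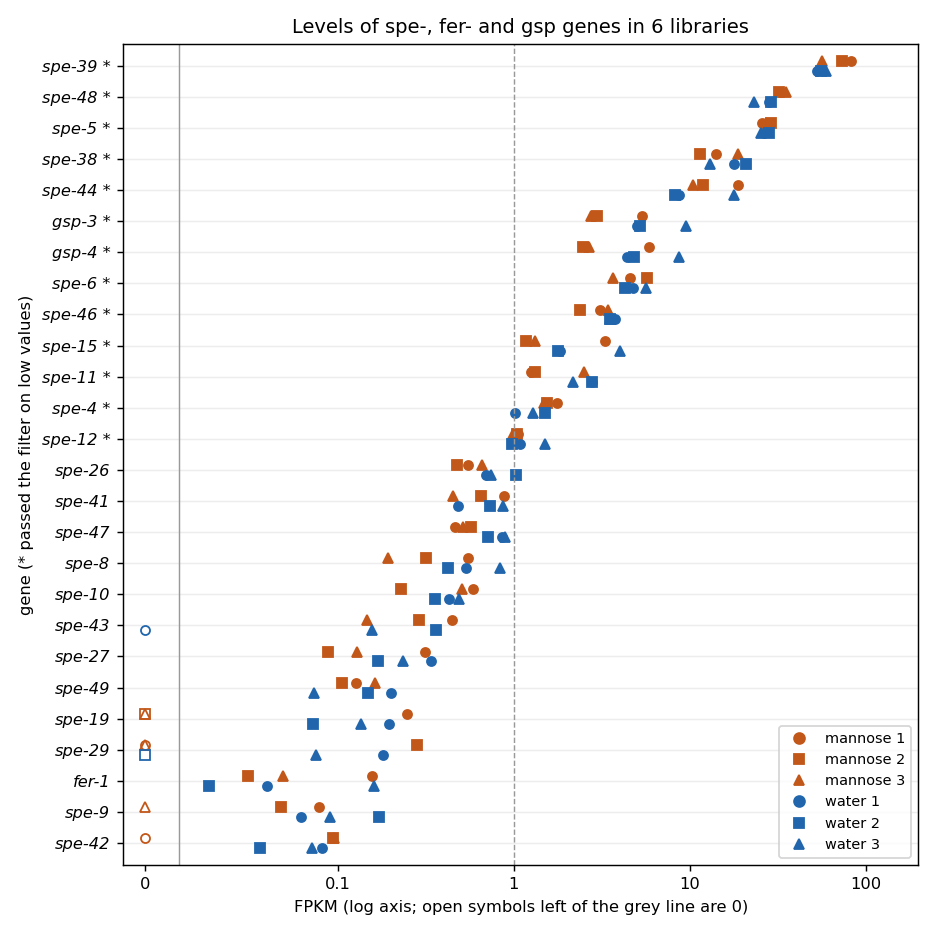
Levels of 26 of the 28 genes in the 6 libraries, in FPKM on a log axis, with mannose libraries in orange and water libraries in blue and open symbols at the left for values of 0. Genes run down by mean level, from spe-39 at 63.6 FPKM to spe-42 at 0.0631 FPKM, and an asterisk marks the 13 that passed the filter at 1 FPKM, drawn as a dashed line.

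Several of these levels rest on gene models that differ from those of RefSeq. The files and RefSeq use the same genome build, WBcel235, and 18 members have the same start-to-end length in both. For 9 the deposited span is longer, and for spe-39 it is shorter. The extra length is over 1000 bases in spe-5, spe-38, spe-15, spe-41 and spe-27. The deposited model of spe-38 covers I:10964472-10970173 on the minus strand, whereas RefSeq ends the gene at 10966382. The extra 3791 bases lie over impt-1, a gene on the same strand that encodes an IMPACT-family protein. Exons of impt-1 take up 952 bases of the span, the listed length of spe-38 is 1549 bases against 655 bases of Ensembl exons, and the best protein match given for spe-38 in the files is the IMPACT homolog.

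The model of spe-5, at I:5101665-5104913 on the minus strand, likewise runs 1437 bases past RefSeq into chp-1, which averaged 169 FPKM and has 1192 exon bases inside the span. Its listed length is 2967 bases, of which 43.7% lies beyond the exons that Ensembl gives spe-5. The corresponding share was 57.7% for spe-38, 58.6% for spe-27 and 19.8% for spe-41. In spe-15, spe-11 and spe-47 the span overlaps an expressed gene on the same strand. Ensembl exons were looked up by gene name, and none found under the neighbour's name lay inside the span. A name absent from Ensembl would give the same result, and the deposited exons of these neighbours were not examined. These neighbours are herc-1, F48C1.9 and Y23H5A.12. The gene spe-26 overlaps R10H10.3 on the opposite strand. The sources used here do not say how reads in shared stretches were assigned or whether strand was used. Part of the values of spe-38, spe-5, spe-15, spe-11 and spe-47 may therefore be reads of their neighbours, which was not tested.

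**Figure D2:**
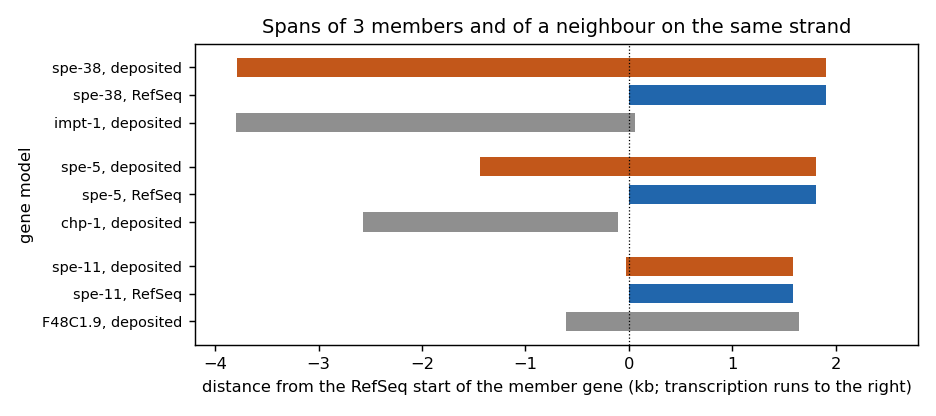
Spans of spe-38, spe-5 and spe-11 as deposited (orange) and in RefSeq (blue), with a neighbour on the same strand as deposited (grey), in kb from the RefSeq start of each sperm gene, transcription running to the right. The deposited spe-38 starts 3791 bases upstream of RefSeq and covers most of impt-1, the deposited spe-5 starts 1437 bases upstream inside chp-1, and F48C1.9 overlaps the model of spe-11, whose own span nearly matches RefSeq.

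The transcription regulator among the members, spe-44, showed no difference between the groups beyond the spread of its libraries. Its product, a SAND-domain protein, switches on many sperm genes in the early spermatocyte. At IV:12452062-12454215 on the minus strand, spe-44 had 18.8, 11.9 and 10.5 FPKM in mannose 1, 2 and 3, against 8.69, 8.31 and 17.9 FPKM in water 1, 2 and 3. The groups overlapped, with mannose 1 and water 3 highest. The means were 13.7 ± 4.46 FPKM in mannose and 11.6 ± 5.43 FPKM in water (SD, n = 3 each). Differences below are of log2(FPKM + 1), mannose minus water, a scale that understates differences of low genes. For spe-44 it was 0.26 with a standard error of 0.35 (limma adjusted p = 0.9999). The difference depended on those libraries, at 0.025 without mannose 1 and 0.59 without water 3.

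Genes for building the sperm and its organelles were the largest group, with 11 members, of which 7 were tested, 3 were higher and 4 lower in mannose, and none passed the test. The median difference of the 7 was −0.070. Of this group, spe-39 acts in vesicle traffic to lysosome-like organelles and is also used outside the germ line. It lies at V:6785451-6787797 on the plus strand and had 82.9, 73.5 and 56.7 FPKM in mannose against 52.9, 55.9 and 59.8 FPKM in water. Mannose 1 and 2 were above all water libraries and mannose 3 was below water 3, so the groups overlapped. The difference was 0.32 with a standard error of 0.17 (limma adjusted p = 0.9999), and 0.20 without mannose 1. Scaled by summed reads in place of the effective library size, spe-39 had 73.8, 76.8 and 64.0 in mannose and 58.6, 60.1 and 50.1 in water, and on that scale all mannose libraries were higher.

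A second abundant gene, spe-5, encodes a B subunit of the V-ATPase, the proton pump that acidifies organelles. It was the steadiest of the group, with 25.7, 29.002 and 27.2 FPKM in mannose and 26.3, 28.2 and 25.6 FPKM in water. The libraries of both groups lay in the same narrow range. Its difference was 0.031 with a 95% interval from −0.29 to 0.35 (limma adjusted p = 0.9999), and its sign turned under another scaling of the libraries (−0.031 with upper-quartile scaling) and without mannose 2 (−0.013). Its neighbour chp-1 had 194, 170 and 158 FPKM in mannose and 148, 151 and 194 FPKM in water. The highest chp-1 values were in mannose 1 and water 3, which held the lowest values of spe-5 within its narrow range.

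The phosphatase genes gsp-3 and gsp-4 had the most negative differences of the 13 tested members, though neither passed the test. Both encode catalytic subunits of PP1-type phosphatases needed for sperm meiosis and for the motility built on major sperm protein. At I:4709259-4710712 on the minus strand, gsp-3 had 5.33, 2.96 and 2.73 FPKM in mannose against 5.01, 5.19 and 9.49 FPKM in water. Mannose 2 and 3 lay below every water library, while mannose 1 lay above water 1 and 2. The difference was −0.69 with a standard error of 0.31 (limma adjusted p = 0.9999). It was −0.43 without water 3. Per summed reads, gsp-3 had 4.74, 3.09 and 3.09 in mannose and 5.55, 5.58 and 7.96 in water, and all mannose libraries were lower.

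Its paralog gsp-4, at I:3838237-3839653 on the minus strand, showed the same pattern over the libraries. It had 5.88, 2.46 and 2.67 FPKM in mannose and 4.40, 4.81 and 8.66 FPKM in water. Again mannose 2 and 3 were the lowest and water 3 the highest library, and the groups overlapped through mannose 1. The difference was −0.60 with a standard error of 0.35 (limma adjusted p = 0.9999), −0.34 without water 3 and −0.91 without mannose 1. The paralogs are alike in sequence, and the sources used here do not say how reads matching both were counted, so their split is uncertain. The ratio of gsp-3 to gsp-4 was 0.907, 1.20 and 1.02 in mannose and 1.14, 1.08 and 1.10 in water, so the paralogs stood at like levels in every library.

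Across libraries the order of gsp-4 levels was that of the summed msp genes, with water 3 highest, then mannose 1, water 2, water 1, mannose 3 and mannose 2. The 31 msp genes summed to 1854, 987 and 1206 FPKM in mannose, against 1625, 1705 and 2507 FPKM in water. The gsp pair together amounted to 0.604%, 0.549% and 0.449% of the msp sum in mannose and 0.579%, 0.586% and 0.724% in water. This share overlapped between the groups, although both its terms were lowest in mannose 2 and 3. These sums share their libraries and scaling, and they are given as a description.

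**Figure D3:**
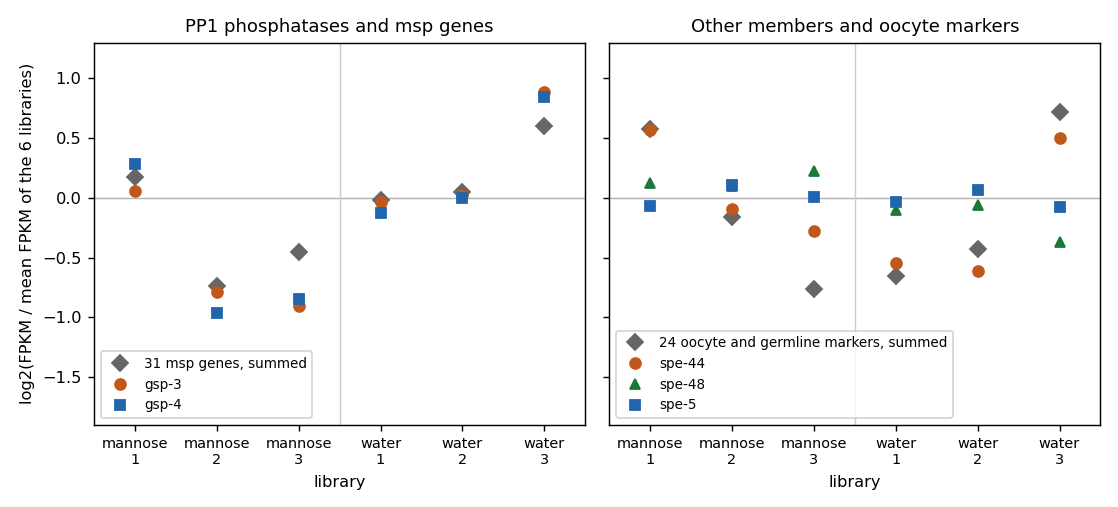
Level in each library relative to the mean of the 6 libraries, as log2 of the FPKM ratio. At the left are gsp-3, gsp-4 and the summed msp genes, which were lowest in mannose 2 and 3 and highest in water 3; at the right are spe-44, spe-48, spe-5 and the summed oocyte and germline markers, where spe-44 and the oocyte markers were highest in mannose 1 and water 3 and spe-5 stayed near 0.

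A kinase of the casein kinase family, spe-6, is needed for packing major sperm protein into fibrous bodies and also holds spermatids inactive until their signal comes. Its gene, at III:11505488-11508930 on the plus strand, had 4.56, 5.69 and 3.69 FPKM in mannose and 4.78, 4.29 and 5.61 FPKM in water. The range of the water libraries lay within that of the mannose libraries. The difference was −0.070 with a 95% interval from −0.51 to 0.37 (limma adjusted p = 0.9999), with the opposite sign, at 0.057, without mannose 3 and at 0.016 without water 3.

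A myosin of class VI, spe-15, sorts cell contents as spermatids bud from the residual body. It had 3.29, 1.18 and 1.32 FPKM in mannose and 1.84, 1.79 and 4.04 FPKM in water. Mannose 1 and water 3 were the highest libraries, as they were in herc-1, the neighbour whose model it overlaps, with 31.7, 20.1 and 8.48 FPKM in mannose and 10.002, 11.5 and 28.4 FPKM in water. The part of herc-1 reads in spe-15 was not tested. The difference of spe-15 was −0.29 with a standard error of 0.36 (limma adjusted p = 0.9999), and it lay between −0.60 without mannose 1 and −0.012 without water 3.

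The presenilin-family protein of spe-4 sits in the membranous organelles. Its gene, at I:7454660-7456953 on the plus strand, had 1.77, 1.54 and 1.49 FPKM in mannose and 1.01, 1.51 and 1.29 FPKM in water. Mannose 1 and 2 lay above all water libraries and mannose 3 just below water 2. The difference was 0.20 with a standard error of 0.13 (limma adjusted p = 0.9999), from 78 to 117 read equivalents in a library. It was 0.12 without water 1.

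The untested members of the group were too scarce for the test. Among them are spe-26, for a kelch-domain protein of the spermatocyte cytoskeleton, spe-10, for a palmitoyltransferase, and fer-1, for the ferlin that fuses membranous organelles with the sperm surface. The values of spe-26 were 0.550, 0.476 and 0.658 FPKM in mannose and 0.694, 1.03 and 0.741 FPKM in water, and these did not overlap. R10H10.3, on the other strand, had 54.1, 70.3 and 84.7 FPKM in mannose and 73.8, 75.2 and 48.6 FPKM in water, an order that spe-26 did not follow. Levels of spe-10 were 0.228 to 0.590 FPKM in mannose and 0.358 to 0.491 FPKM in water, with overlap.

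For fer-1, at I:8623012-8631202 on the minus strand, the values were 0.155, 0.0306 and 0.0485 FPKM in mannose and 0.0396, 0.0184 and 0.161 FPKM in water. These rest on 37, 8 and 15 read equivalents in mannose and 12, 5 and 39 in water. The highest values of this low gene were in mannose 1 and water 3, and the groups overlapped.

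Activation genes act when the spermatid turns into a crawling sperm. Of 8 members 2 were tested, both lower in mannose without passing the test, with a median difference of −0.16. Both spe-46 and spe-47 act in the timing of activation, and spermatids of their mutants can activate early. At I:9056293-9057824 on the plus strand, spe-46 had 3.11, 2.38 and 3.42 FPKM in mannose, against 3.78, 3.50 and 3.52 FPKM in water. The groups did not overlap, although mannose 3 came close to water 2. The difference was −0.22 with a standard error of 0.15 (limma adjusted p = 0.9999). It was −0.11 without mannose 2, and per summed reads the groups overlapped.

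The untested spe-47, for a protein with a major sperm protein domain, had 0.461, 0.574 and 0.516 FPKM in mannose, from 22, 30 and 32 read equivalents, against 0.857, 0.717 and 0.887 FPKM in water, from 52, 39 and 43 read equivalents. All mannose libraries lay below all water libraries. With no filter on low values, spe-47 had a difference of −0.26 with a standard error of 0.090 (limma adjusted p = 0.92), and it was the one member of 28 with an unadjusted p under 0.05 in that fit, which 4.11% of 21746 genes reached. Its neighbour Y23H5A.12 had 5.72, 4.30 and 2.47 FPKM in mannose and 4.37, 3.98 and 5.96 FPKM in water, with overlap. The part of Y23H5A.12 reads in the spe-47 values was not tested.

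The remaining 6 activation genes belong to the spe-8 pathway, through which hermaphrodite spermatids receive their activating signal. It is named for spe-8, which encodes a tyrosine kinase, and includes the membrane protein genes spe-12, spe-19, spe-29 and spe-43 as well as spe-27. The tested one, spe-12, had the values given above, and its difference was −0.10 with a standard error of 0.12 (limma adjusted p = 0.9999), with −0.17 without water 2 and −0.00033 without water 3. The others overlapped between the groups. The kinase gene spe-8 had 0.192 to 0.548 FPKM in mannose and 0.422 to 0.833 FPKM in water, and spe-27 had 0.0874 to 0.312 FPKM in mannose and 0.168 to 0.339 FPKM in water.

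At the lower end of the pathway, spe-43, spe-19 and spe-29 were each at 0 in at least 1 library. The highest value of spe-43 was 0.446 FPKM in mannose and 0.362 FPKM in water, that of spe-19 was 0.248 FPKM in mannose and 0.195 FPKM in water, and that of spe-29 was 0.280 FPKM in mannose and 0.181 FPKM in water. A count of 0 allows up to 3 reads. That limit was 0.0755 FPKM for spe-43 in water 1, 0.0754 and 0.0636 FPKM for spe-19 in mannose 2 and 3, and 0.230, 0.177 and 0.202 FPKM for spe-29 in mannose 1, mannose 3 and water 2. These limits cover counting error only, and a difference between the groups was not detectable in these genes at this depth.

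Genes listed for sperm and egg meeting, a list without spe-41, comprised 6 members, of which 2 were tested. Both were lower in mannose without passing the test, with a median difference of −0.32. The paternal factor spe-11 is brought in by the sperm and supports egg activation and the first steps of the embryo. At I:5330578-5332194 on the minus strand, it had 1.26, 1.32 and 2.51 FPKM in mannose against 2.79, 2.78 and 2.17 FPKM in water. Mannose 1 and 2 were below all water libraries, and mannose 3 lay above water 3. The difference was −0.44 with a standard error of 0.20 (limma adjusted p = 0.9999). The overlapping neighbour F48C1.9 had 1.89, 3.04 and 3.11 FPKM in mannose and 3.09, 4.29 and 2.73 FPKM in water, and its part in the spe-11 values was not tested.

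The sperm surface protein gene spe-38, whose product spans the membrane several times and moves to the pseudopod on activation, is the other tested gene of this kind. It had 14.1, 11.5 and 18.8 FPKM in mannose and 17.9, 20.8 and 13.1 FPKM in water, with mannose 3 and water 2 highest and the groups overlapping. The difference was −0.21 with a standard error of 0.25 (limma adjusted p = 0.9999). It was −0.39 without mannose 3 and −0.055 without mannose 2. The neighbour impt-1 had 12.6, 32.3 and 12.5 FPKM in mannose and 21.4, 17.6 and 15.7 FPKM in water. The highest impt-1 value, in mannose 2, met the lowest spe-38 value, and the ratio of spe-38 to impt-1 ran from 0.356 in mannose 2 to 1.504 in mannose 3, with 0.835 to 1.18 in water.

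The level of spe-38, measured over a model that takes in exons of impt-1, was above those of the other genes for sperm surface proteins. The gene spe-9, for a membrane protein with EGF repeats, at I:11582743-11586069 on the minus strand, had 0.0780, 0.0474 and 0 FPKM in mannose and 0.0613, 0.171 and 0.0896 FPKM in water. The zero in mannose 3 allows up to 0.0300 FPKM. The gene spe-42, for a membrane protein of the DC-STAMP family, at V:11733540-11736996 on the minus strand, had 0, 0.0943 and 0.0954 FPKM in mannose and 0.0812, 0.0362 and 0.0712 FPKM in water. Its zero in mannose 1 allows up to 0.0310 FPKM. Neither gene had more than 15 read equivalents in any library, and the groups overlapped in both. The related DC-STAMP gene spe-49 had 0.106 to 0.163 FPKM in mannose and 0.0728 to 0.199 FPKM in water, again with overlap.

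Outside these groups, as the members were listed, are spe-48 and spe-41, although spe-41 also acts at fertilization. The product of spe-41 is a TRPC-type cation channel that sperm need for fertilization, known also as TRP-3, and its gene had 0.452 to 0.882 FPKM in mannose and 0.480 to 0.868 FPKM in water, with overlap. The gene spe-48, to which no role is given here, lies at I:1950594-1958527 on the minus strand. It had 32.8, 32.2 and 35.3 FPKM in mannose against 28.1, 28.96 and 23.3 FPKM in water. All mannose libraries were above all water libraries, and its means were 33.5 ± 1.61 FPKM in mannose and 26.8 ± 3.04 FPKM in water (SD, n = 3 each). The difference was 0.31 with a standard error of 0.14 (limma adjusted p = 0.9999). Its deposited model matches RefSeq and no expressed gene overlaps it on the same strand. Per summed reads spe-48 had 29.2, 33.7 and 39.8 in mannose and 31.1, 31.1 and 19.6 in water, where the groups overlapped.

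Set side by side, 0 of the 13 tested members passed an adjusted p of 0.05 with limma, where 0% of all 11237 tested genes did. None had an unadjusted p under 0.05, which 4.73% of all genes did, or 532 genes. By limma-voom, fitted to the read equivalents, 0 genes passed and 535 had an unadjusted p under 0.05. Higher in mannose were 5 of the 13, namely spe-39, spe-48, spe-44, spe-4 and spe-5, against 54.5% of all genes. The median difference was −0.10 for the 13 members and 0.015 for all tested genes. That of the members was −0.00033 without water 3, −0.0084 without both mannose 1 and water 3, −0.18 with limma-voom and −0.17 with a pseudocount of 0.1. The 95% intervals of all 13 include 0, and that of spe-12, which reached from −0.40 to 0.20, was the narrowest. The groups did not overlap in 2 of 13, with spe-48 higher and spe-46 lower in mannose, against 10.7% of all genes. Of the 15 untested members, spe-26 and spe-47 did not overlap and both were lower in mannose, against 6.42% of genes above 0 that missed the filter.

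**Figure D4:**
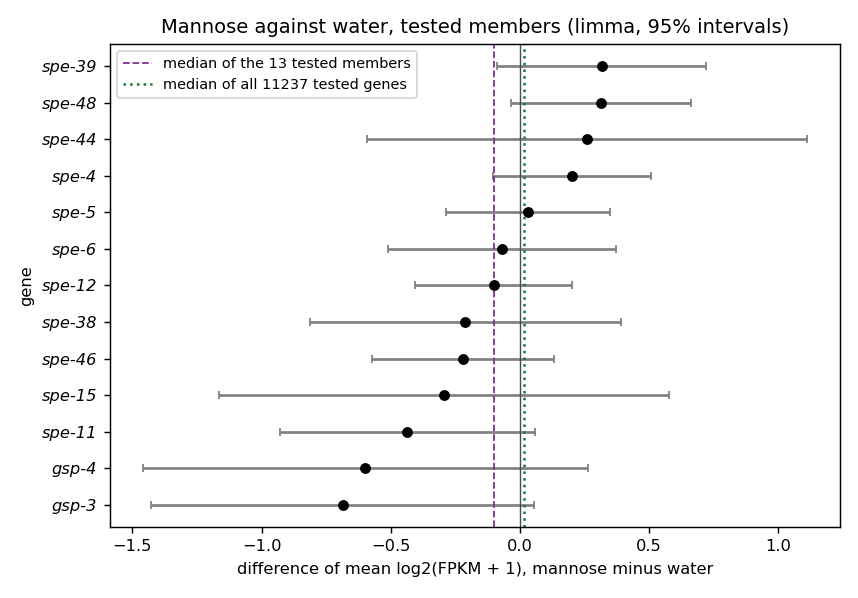
Difference in mean log2(FPKM + 1), mannose minus water, for the 13 tested genes, as points with 95% intervals from limma. The dashed line is their median of −0.10 and the dotted line the median of all 11237 tested genes, 0.015; each interval includes 0, and gsp-3 at −0.69 and spe-39 at 0.32 are the outermost points.

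Which members separated the groups depended on the scale. Per summed reads, the 2 members whose groups did not overlap were gsp-3, lower in mannose, and spe-39, higher in mannose, against 8.27% of all tested genes, and neither spe-48 nor spe-46 was among them. The effective size was 0.890, 1.04 and 1.13 times the summed reads in mannose 1, 2 and 3, and 1.11, 1.08 and 0.839 times in water 1, 2 and 3. The smallest ratios belonged to mannose 1 and water 3, the libraries rich in oocyte transcripts. In 4 of the 13 tested members, spe-44, spe-15, gsp-3 and gsp-4, these were the 2 highest libraries, as they were in 28.6% of all tested genes, in 19 of 24 oocyte and germline markers and in 21 of 29 tested msp genes. The part of this pattern in the differences above was not tested beyond the fits without those libraries.

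The members together took a small part of each library. They held 0.0329%, 0.0344% and 0.0350% of read equivalents in mannose and 0.0324%, 0.0333% and 0.0274% in water, groups that overlapped, and the ratio of the means was 1.10. Without the 6 members that overlap an expressed neighbour on the same strand, the shares were 0.0228%, 0.0228% and 0.0211% in mannose and 0.0194%, 0.0196% and 0.0177% in water. On that count all mannose libraries were above all water libraries, with a ratio of means of 1.18. As summed FPKM the same 22 genes had 161, 137 and 121 in mannose and 114, 118 and 137 in water, and on that scale the groups overlapped, mannose 3 lying below water 3. The largest contributor was spe-39, with 5076 to 5716 read equivalents in mannose and 4188 to 4642 in water. These were not whole reads in any library with its listed length, 1814 bases against 1943 bases of Ensembl exons. Among the 22 genes spe-48 came next, with 1581 to 2208 in mannose and 1141 to 1723 in water. Together spe-39 and spe-48 held most of the reads of the 22, and the share without them was not computed.

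Some genes of the same kind stand under other names. RefSeq now gives spe symbols to 9 more genes that the deposited files list under older names, so the rule did not take them. Of these 4 were tested, F32A11.3 (spe-18), F55H12.5 (spe-54), F52F12.5 (spe-58) and C09B9.4 (spe-55). All 4 were lower in mannose, with a median difference of −0.34, none passed the test and all overlapped between the groups. The other 5 were too scarce for the test, with means over the libraries of 0.0443 to 0.719 FPKM. The highest of those, F40F11.4 (spe-36), for a secreted protein with an EGF motif, had 0.787, 1.31 and 0.445 FPKM in mannose and 0.364, 0.771 and 0.638 FPKM in water, with overlap and the highest value in mannose 2. The gene F55H12.5 had 2.37, 2.04 and 2.86 FPKM in mannose and 2.71, 3.39 and 3.70 FPKM in water (limma adjusted p = 0.9999).

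Other genes of the sperm were listed by function, among them the msd genes for proteins that carry a major sperm protein domain. Of 14 tested, 12 were lower in mannose, the median was −0.49, and 6 had an unadjusted limma p under 0.05, against 4.73% of all tested genes, while none passed after adjustment. The smallest p belonged to msd-4, with 115, 87.9 and 114 FPKM in mannose and 156, 169 and 170 FPKM in water (limma adjusted p = 0.9999). In msd-4, msd-3 and msd-1 alike, all mannose libraries were below all water libraries, as in 8 genes of this list, against 10.7% of all tested genes. The medians of the families outside the rule were −0.56 for 29 tested msp genes, −0.56 for 10 ssp genes and −0.64 for 9 nspd genes, with 28, 10 and 9 lower in mannose. Of these, 4 msp, 2 ssp and 8 nspd genes had an unadjusted limma p under 0.05. All of them come from the same 6 libraries and many are near-identical copies, so they are not separate measurements.

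Regulators of sperm fate, among them fog-2, tra-2 and gld-3, mostly had positive differences, none past the test. Of 11 tested, 10 were higher in mannose, with a median of 0.14, and none had an unadjusted p under 0.05. The translational regulator gene gld-3 had 108, 86.6 and 61.1 FPKM in mannose and 53.3, 62.4 and 82.4 FPKM in water, with overlap. Of the 24 oocyte and germline markers 17 were higher in mannose, with a median of 0.085, and all overlapped. Of 7 tested markers of the spermatheca and gonad sheath, where sperm are stored and ovulation is driven, 4 were higher and 3 lower, with a median of 0.028. Within that list sth-1, a spermatheca marker, had 10.1, 8.21 and 11.7 FPKM in mannose and 13.5, 12.2 and 13.7 FPKM in water, which did not overlap (limma adjusted p = 0.9999). It was the 1 gene of the 7 whose groups did not overlap, against 10.7% of all tested genes. The 6 yolk genes had a median of −0.070, with 5 lower in mannose. The part of cell make-up in the values of the sperm genes was not tested.

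The rule did not use position, and the members were spread unevenly over the chromosomes. Chromosome I carries 14 of the 28. Of the 13 tested it carries 10, against 17.4% of all tested genes. The X chromosome carries 0 of the 28, and so 0 of the 13 tested, against 12.9% of all tested genes. Chromosome IV carries 7 members, V carries 5, III carries 2 and II carries 0. Of the 3 tested members off chromosome I, spe-39 on V and spe-44 on IV were higher in mannose and spe-6 on III was lower, with none past the test.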

How the data were processed

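Per the labels' protocols, RNA was extracted with Trizol and both a TruSeq and a VAHTS kit are named. Per the submitters' processing notes, tools were cutadapt, FastQC and HISAT2 2.1.0, with build WBcel235. The sources used here name no counting tool and no strand setting.

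The values the authors deposited are FPKM, 1 table per library, a unit worked out from the values. Multiplied by the listed gene length, 95.0% to 95.8% of values worth up to 20 reads came out as whole reads, to within 0.05, for a step found for each library, as did 84.5% to 86.3% of all values above 0. The step gives read equivalents and the effective library size. Members not whole in every library are spe-39, spe-43 and spe-49. Of 47656 rows, 1927 without a value were left out, none of them a member.

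Because these are not counts, the test planned for normalized values was used: limma 3.58.1 (trend, robust; R 4.3.3) on log2(FPKM + 1), on genes that reached an FPKM of 1 in 3 or more of the 6 libraries, with Benjamini-Hochberg adjustment over all genes tested at 0.05. The fit was checked on simulated data. Limma-voom on read equivalents, other pseudocounts, filters and scalings, a replicate block and fits without single libraries were the alternatives. Promoter and protein sequences were not used here, and the values of 2 members are not reported here, though they enter the counts, shares and medians where they apply.

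Members and lists were chosen with earlier results of these data known. Values per library are given for the 12 members with the highest mean, the 4 with the smallest p, the 3 largest differences in each direction and 10 chosen by function, and otherwise for members with a feature named in the text. From other lists at most 3 genes with the smallest p are named with values. Beyond that rule, genes with later spe symbols and 2 male markers at 0 are named, chosen after their values were seen. An expressed neighbour is one with a mean of at least 1 FPKM. RefSeq models of WBcel235 were matched by locus tag, and Ensembl exons of that build by gene name.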

Additional observations from a re-analysis of the deposited data

How the results depend on the processing

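No member passed the adjusted threshold in any fit. Over all genes the count was 0 with pseudocounts of 0.1 and 0.5, no filter, a floor of 10 read equivalents on the mean, upper-quartile scaling, the share of summed reads and limma-voom; 0 to 2 with 1 library left out (2, dml-1 and linc-44, without mannose 1); and 3 without both mannose 1 and water 3. The labels number the replicates alike, but same-numbered libraries did not deviate together (correlations −0.74, 0.24 and −0.71 over genes). Libraries of unlike number did in part, with 0.77 for mannose 1 and water 3 and 0.71 for mannose 3 and water 1. The other pairs of unlike number ran from −0.49 to 0.42. With the replicate block 0 genes were called and 164 had an unadjusted limma p under 0.05, against 532.

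Of 204 alternative differences of members, 5 had the opposite sign, in spe-5 and spe-6. The fits with no filter, the floor on mean reads, the replicate block and members without overlap kept each difference by construction. A sign could turn only in the other fits, so the 204 overstate how many were open to change. For spe-5 the difference was −0.031 with upper-quartile scaling and −0.013 to 0.072 with 1 library left out. For spe-6 it was −0.20 to 0.057 with 1 left out and 0.019 without both mannose 1 and water 3. The median of tested members was −0.15 to −0.00033 with 1 left out and −0.0084 without both, and it was −0.18 with limma-voom and −0.17 with a pseudocount of 0.1. The share of reads of the members had a ratio of 1.18 without overlapping members, where spe-39 and spe-48 held most of the reads. With limma-voom spe-15 was at −0.46 and spe-4 at 0.35. Members with an unadjusted limma p under 0.05 were gsp-3 with upper-quartile scaling and per summed reads. Without mannose 1 and without both libraries they were gsp-3 and gsp-4. Without mannose 3 they were spe-11 and spe-39, and spe-47 was the one with no filter and with the floor on mean reads. Over all 11237 tested genes, the count was 454 with upper-quartile scaling, 367 per summed reads and 440 without mannose 1. It was 713 without both libraries and 618 without mannose 3. With no filter it was 893 of 21746 genes, and with the floor 676 of 14149. The cause of the changes between fits was not tested. The fewest reads were those of spe-29, spe-19 and spe-9, with 8, 26 and 38 read equivalents over the 6 libraries.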
